A study of Saccharomyces cerevisiae with 11 samples.

Results

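The lower glycolysis isoenzyme genes of budding yeast are the 10 genes that encode the enzymes from aldolase to enolase, with their major and minor copies. They were taken by gene name from the array's annotation, and 10 of the 6256 genes measured matched: FBA1 (YKL060C), TPI1 (YDR050C), TDH1 (YJL052W), TDH2 (YJR009C), TDH3 (YGR192C), PGK1 (YCR012W), GPM1 (YKL152C), GPM2 (YDL021W), ENO1 (YGR254W) and ENO2 (YHR174W). TDH1, GPM2 and ENO1 are called stress-type here, and the other 7 genes growth-type. The division was made by gene name and not by values on these arrays.

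Glycolysis splits glucose into pyruvate, and its lower part carries the sugar phosphates from fructose-1,6-bisphosphate to phosphoenolpyruvate. In yeast growing on glucose these genes are among the most strongly transcribed of the genome, driven largely by the factors Rap1 and Gcr1. Several steps have paralogs: Tdh2 and Tdh3 carry most of the glyceraldehyde-3-phosphate dehydrogenase activity in growing cells, whereas TDH1 is known for expression in stress and stationary phase. ENO2 is the glucose-induced enolase gene, ENO1 is the one expressed more evenly across carbon sources, and GPM2 is a weakly expressed homolog of the phosphoglycerate mutase gene GPM1.

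RNA was measured on 11 Agilent 2-colour arrays, each with 1 experimental RNA labelled with Cy3 against a reference labelled with Cy5. The experimental RNA came from asf1, chz1, nap1, rtt106 and vps75 deletions treated with trichostatin A (TSA), from the same 5 deletions without TSA, and from TSA-treated wild type. TSA inhibits histone deacetylases, and the 5 deleted genes encode histone chaperones, proteins that hand histones to DNA or take them from it. The reference was read as untreated wild type on every array. All strains derive from BY4742, a MAT alpha haploid that lacks HIS3, LEU2, LYS2 and URA3, and grew at 30 °C in rich medium with 2% glucose. Treated cultures received 10 µM TSA at an optical density of 0.5 and grew for 1 h more. Each strain and treatment has 1 array, so a level on 1 array has no replicate error. The sources used here do not say how many clones of a deletion were grown or whether the 2 arrays of a strain share a culture.

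The question the arrays address is how the loss of each chaperone, and TSA, alter transcript levels. Each deleted gene was low on both arrays of its own strain, and the 4 alpha-specific genes were detected in both channels on 11 of 11 arrays. The a-specific genes were dim but not all at the floor: in the experimental channel MFA1 was detected on 11 arrays, BAR1 on 10, STE2 on 7, MFA2 on 4 and AGA2 on 1. HIS3, LEU2, LYS2 and URA3 set the floor of detection and are no check of the strain. The median signal of a channel was 357 to 1095, and the correlation of the 2 repeats of an array, across all genes, was 0.768 to 0.969. The chz1 array without TSA stood apart. Its label gives the treatment as glucose where the other 4 have untreated, its 2 channels differed most (SD of the log2 ratio 0.542, against 0.191 to 0.424 on the other arrays), and its reference channel differed from the other references in the genes described here. The main results are therefore also given without the chz1 pair or without this array.

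All 10 genes were detected in both channels on all 11 arrays. Signals, in the scanner's arbitrary units, placed 8 of them near the top of each array: the dimmest of these 8, ENO1, was brighter than at least 96.9% of genes on every array. TDH1 was brighter than 87.3% to 99.7% of genes. GPM2 was far dimmer, brighter than 13.1% to 50.7% of genes. Probe signals are not lengths or molecules, and these ranks are not levels of 1 gene against another. TDH2 with TDH3, and ENO1 with ENO2, are near-identical pairs, and how far a probe of one hybridises to the other was not tested.

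The values that follow are log2 ratios of experimental over reference RNA, normalised within each array, so that 1 stands for 2-fold higher and −1 for 2-fold lower. Aldolase, encoded by FBA1, cleaves fructose-1,6-bisphosphate, and triose phosphate isomerase, encoded by TPI1, interconverts its products. FBA1 had ratios of 0.35 in asf1, 0.33 in chz1, −0.03 in nap1, 0.03 in rtt106 and 0.19 in vps75 deletions with TSA, against 0.26, 0.64, −0.22, 0.11 and 0.29 in the same strains without TSA, with 0.04 in wild type after TSA. TPI1 had ratios of 0.06, 0.31, −0.03, 0.29 and 0.22 in the asf1, chz1, nap1, rtt106 and vps75 deletions with TSA, against 0.02, 0.38, −0.30, 0.26 and 0.32 without TSA, and 0.11 in TSA-treated wild type. For both genes the arrays with and without TSA overlapped, the nap1 deletion without TSA was lowest, and the chz1 deletion without TSA was highest. The 2 repeats of that chz1 array gave 0.352 and 0.919 for FBA1, and 0.559 and 0.197 for TPI1. This order depended on the scaling. With each array centred on its median, FBA1 was lowest in wild type with TSA (0.074) and TPI1 highest in the rtt106 deletion without TSA (0.718).

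Glyceraldehyde-3-phosphate dehydrogenase, encoded by TDH1, TDH2 and TDH3, oxidises the triose phosphate. TDH1 had ratios of 1.10 in asf1, 0.93 in chz1, 0.17 in nap1, 0.32 in rtt106 and 0.59 in vps75 deletions with TSA, against 0.50, −0.73, 0.29, −0.23 and 0.19 in the same strains without TSA. It stood at 0.07 in wild type with TSA. The asf1 deletion was high with and without TSA, the nap1 deletion was the one strain in which TDH1 was not higher with TSA, and the lowest value belonged to the chz1 deletion without TSA. TDH2 had ratios of 0.10, 0.16, −0.28, −0.58 and −0.03 with TSA in the same strain order, against 0.05, −1.10, −0.12, −0.11 and 0.17 without TSA, and wild type with TSA had 0.25. TDH3 had ratios of 0.09, 0.10, −0.34, −0.59 and −0.05 with TSA, against 0.17, −1.15, −0.21, 0.01 and 0.06 without TSA, and wild type with TSA had 0.16. TDH2 and TDH3 moved together (Pearson r = 0.981 over 11 arrays and 0.947 without the chz1 array without TSA). Both were lowest in the chz1 deletion without TSA and next lowest in the rtt106 deletion with TSA, where TDH1 was on the higher side.

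Phosphoglycerate kinase, encoded by PGK1, makes the first ATP of the lower part. PGK1 had ratios of 0.08 in asf1, 0.65 in chz1, −0.14 in nap1, −0.12 in rtt106 and 0.09 in vps75 deletions with TSA, against −0.03, −0.49, −0.23, −0.20 and 0.09 without TSA, and 0.02 in TSA-treated wild type. The 2 chz1 arrays held both its highest and its lowest value, and the other 9 arrays lay between them in a narrow band.

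Phosphoglycerate mutase is encoded by GPM1, and GPM2 is its homolog. GPM1 had ratios of 0.45, 0.30, −0.15, 0.23 and 0.18 in the asf1, chz1, nap1, rtt106 and vps75 deletions with TSA, against 0.29, 0.24, −0.20, 0.03 and 0.33 without TSA, and wild type with TSA had 0.01. GPM2 had ratios of 1.64, 1.02, 0.80, 1.62 and 0.62 with TSA in the same order, against 1.14, −0.76, 0.70, 1.04 and −0.21 without TSA, and wild type with TSA had 0.24. GPM2 spanned the widest range of the 10 genes. It was above 0 on 9 of 11 arrays, in 5 of 5 deletions with TSA and in 3 of 5 without TSA, and its lowest values came from the chz1 and vps75 deletions without TSA. GPM1 stayed within a narrow range on the same arrays.

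Enolase, encoded by ENO1 and ENO2, makes phosphoenolpyruvate. ENO1 had ratios of 0.28, 0.16, −0.46, −0.44 and −0.20 in the asf1, chz1, nap1, rtt106 and vps75 deletions with TSA, against −0.01, −0.99, −0.22, −0.49 and −0.19 without TSA, and wild type with TSA had 0.13. ENO2 had ratios of −0.12, 0.06, −0.34, −0.44 and −0.20 with TSA, against −0.12, −0.50, −0.43, −0.31 and −0.18 without TSA, and wild type with TSA had −0.01. ENO1 was lowest in the chz1 deletion without TSA, and ENO2 lay below 0 on 10 of 11 arrays after loess but on 4 of 11 after median centring of each array.

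**Figure D1:**
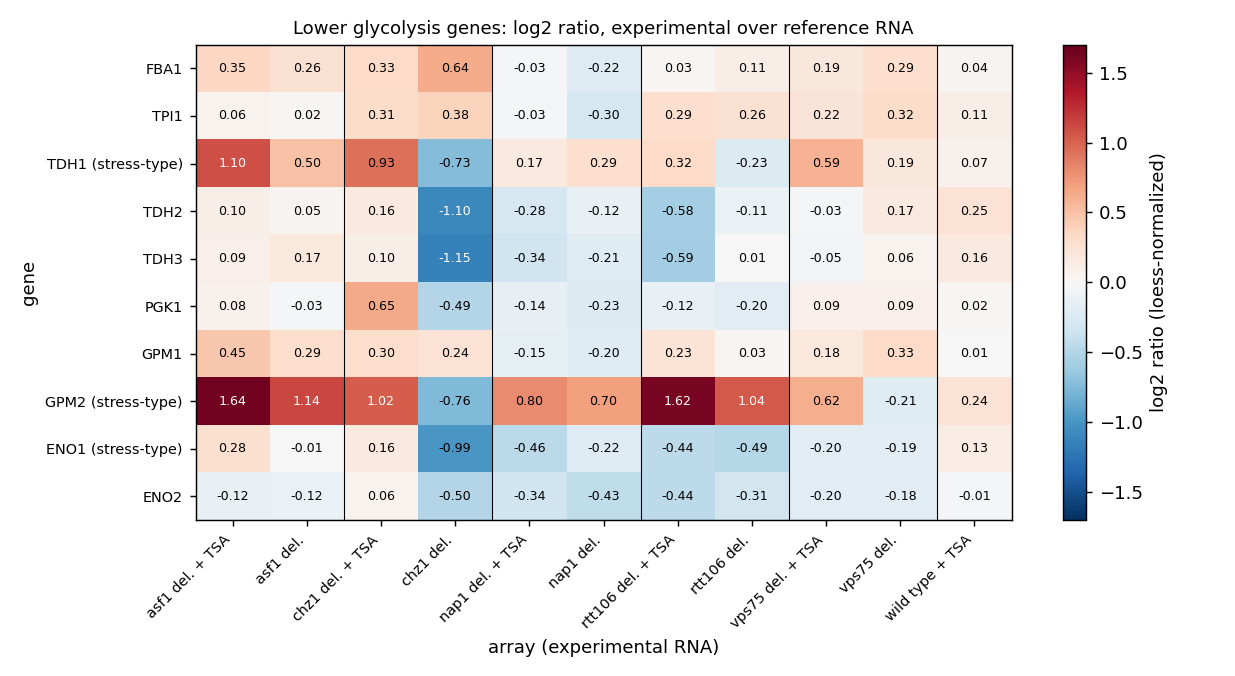
Log2 ratio of experimental over reference RNA for each of the 10 genes (down) on each of the 11 arrays (across), normalised by loess, with the value written in each cell and red for higher and blue for lower. GPM2 is highest in the asf1 (1.64) and rtt106 (1.62) deletions with TSA, and TDH2 and TDH3 are lowest in the chz1 deletion without TSA (−1.10 and −1.15).

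The map of ratios by gene and array shows which genes passed 2-fold on a single array, which carries no test. GPM2 passed 2-fold higher in the asf1 deletion with TSA (3.12-fold) and without TSA (2.20-fold), in the chz1 deletion with TSA (2.03-fold), and in the rtt106 deletion with TSA (3.06-fold) and without TSA (2.06-fold). TDH1 passed it in the asf1 deletion with TSA (2.14-fold). TDH2 and TDH3 were 0.466 and 0.452 times the reference in the chz1 deletion without TSA. Among all genes fitted, 2.47% were at least 2-fold higher in the asf1 deletion with TSA and 1.76% without TSA, 1.27% in the rtt106 deletion with TSA and 1.03% without TSA, and 0.727% in the chz1 deletion with TSA. In the chz1 deletion without TSA, 4.24% of the genes were at least 2-fold lower. In TSA-treated wild type none of the 10 genes passed 2-fold, where 0.22% of all genes passed it on the higher side and 0.101% on the lower side. The direction of the wild type array is only likely, because no deleted gene checks which channel is which there.

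The signs of the 7 growth-type genes depend on how the array is scaled. Loess removes a trend of the ratio with signal, and on 11 of 11 arrays the median of these 7 bright genes was lower after loess than after median centring. With each array only centred on its median, the growth-type genes lay between 0.23 and 0.72 in the rtt106 deletion without TSA, where the loess values lay between −0.31 and 0.26. In the nap1 deletion with TSA they lay between 0.07 and 0.38, where loess gave −0.34 to −0.03. A growth-type gene slightly above or below 0 therefore has no settled direction on a single array. The extreme values kept their sides: TDH3 was at −1.03 and TDH2 at −0.98 in the chz1 deletion without TSA after median centring, and GPM2 was at 1.63 in the asf1 and 1.57 in the rtt106 deletion with TSA. Which genes passed 2-fold did change. TDH2 then fell short, as did TDH1 in asf1 with TSA (0.85) and GPM2 in chz1 with TSA (0.963) and rtt106 without TSA (0.999). FBA1 in the chz1 deletion without TSA (1.036) and PGK1 in the chz1 deletion with TSA (1.039) passed 2-fold higher instead.

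TSA across the 5 deletions was the first comparison with replicates, each strain's array with TSA set against its array without. GPM2 was higher with TSA in 5 of 5 strains, by 0.76 ± 0.22 on the log2 scale (SE, n = 5), and TDH1 in 4 of 5, by 0.62 ± 0.23. Neither passed the adjustment over 5916 genes with limma (adjusted p = 0.814 for each, and 0.0102 for GPM2 and 0.0286 for TDH1 unadjusted). Of the 10 genes 0 passed at an adjusted p of 0.05, as did 0% of all genes. At an unadjusted p of 0.05, 2 of 10 passed, against 4.29% of all genes. The share of all genes that were higher with TSA in 5 of 5 strains was 4.12%, and of the 10 genes only GPM2 was. In the nap1 deletion the GPM2 difference was only 0.099, and its sign depended on the processing. Without the constant added to each intensity, GPM2 there was 0.9 with TSA and 1.053 without. The authors' log ratio gave 0.952 and 1.147, and the deposited series matrix 0.926 and 1.138. Median centring, scaling between arrays and either repeat alone kept it higher with TSA.

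The other 8 genes had smaller mean differences. ENO1 differed by 0.25 ± 0.19, PGK1 by 0.28 ± 0.18, ENO2 by 0.10 ± 0.11, TDH2 by 0.10 ± 0.24, TDH3 by 0.07 ± 0.24, GPM1 by 0.06 ± 0.08, TPI1 by 0.04 ± 0.08 and FBA1 by −0.04 ± 0.09 (SE, n = 5 strains). For TDH2, TDH3, ENO1 and ENO2 the sign or size came from 1 strain: without the chz1 pair the means were −0.20 for TDH2, −0.23 for TDH3, 0.02 for ENO1 and −0.01 for ENO2. Without that pair GPM2 stood at 0.50 and TDH1 at 0.36, both still positive but smaller by over 1.5 times for each. PGK1 stood at 0.06 without it. The channel 1 label gives the untreated deletion strain as the reference on the TSA arrays of all 5 deletions, and likewise for the untreated chz1 array. The signals differ from that reading: on the arrays with TSA the deleted gene had 36 to 258 in the experimental RNA, against 719 to 5074 in the reference, and on the chz1 array without TSA CHZ1 had 473.5 against 3768. With the ratio on the arrays with TSA nonetheless taken as the TSA difference, GPM2 (1.14, adjusted p = 0.021) and TDH1 (0.62, adjusted p = 0.0479) passed with 408 of 5916 genes. With the 2 vps75 arrays exchanged, as the columns of the deposited series matrix have them (an alternative chosen after seeing the data), the means were 0.43 for GPM2 and 0.46 for TDH1. Each vps75 difference then changes sign, so GPM2 and TDH1 were lower with TSA in that strain. All counts of strains given here, such as 5 of 5, take the vps75 arrays as the sample files have them.

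**Figure D2:**
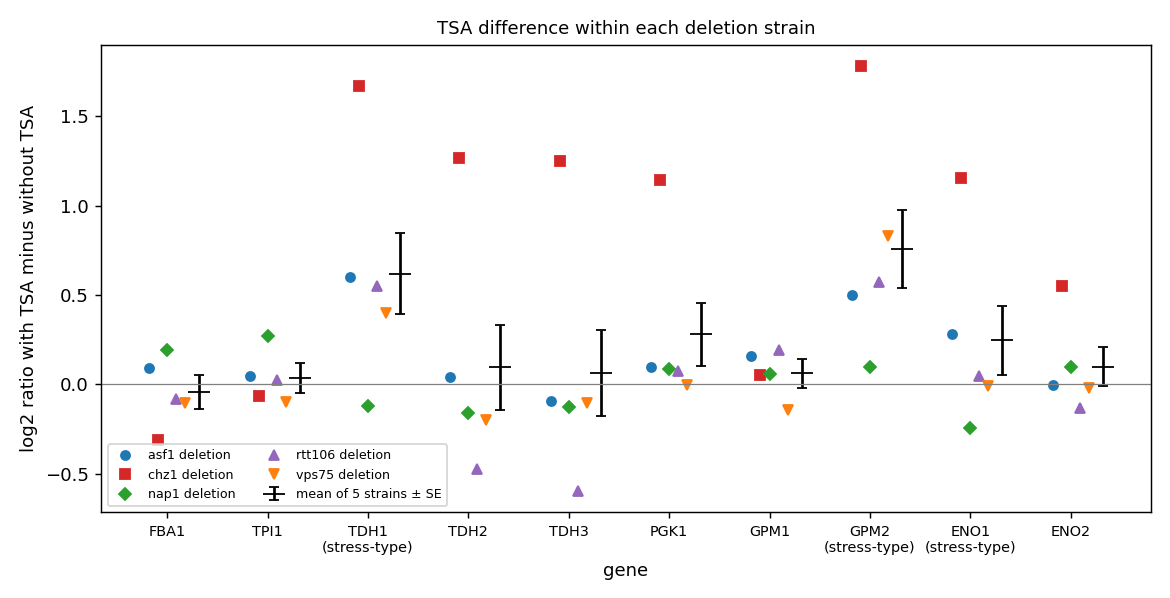
Difference of the log2 ratio, with TSA minus without TSA, within each of the 5 deletion strains (coloured symbols) for each gene, with the mean over the strains and its SE from limma (black). The chz1 deletion lies above the other 4 strains for TDH1, TDH2, TDH3, PGK1, GPM2, ENO1 and ENO2, from 0.55 (ENO2) to 1.78 (GPM2), and not for FBA1, TPI1 and GPM1.

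The plot of TSA differences by strain shows that the chz1 deletion differed from the others, and this difference was tested for each strain against the mean of the other 4. In the chz1 deletion TDH1 differed by 1.67 with TSA minus without, GPM2 by 1.78, TDH2 by 1.27, TDH3 by 1.25, ENO1 by 1.15, PGK1 by 1.14 and ENO2 by 0.55. The other 4 strains lay between −0.12 and 0.60 for TDH1 and between 0.10 and 0.83 for GPM2. For TDH2 they lay between −0.47 and 0.04, for TDH3 between −0.60 and −0.09, for PGK1 at or below 0.10, and for ENO1 between −0.24 and 0.28. The chz1 deletion lay outside the range of the other strains for each of these genes.

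By limma with the spread pooled over the other 4 strains, 7 of the 10 genes passed in the chz1 deletion, all higher, against 29.9% of all genes called and 16% called higher. TDH3 exceeded the mean of the others by 1.48 (adjusted p = 0.00207), TDH2 by 1.46 (adjusted p = 0.00165), TDH1 by 1.31 (adjusted p = 0.00733) and GPM2 by 1.28 (adjusted p = 0.00633). ENO1 exceeded it by 1.13 (adjusted p = 0.00464), PGK1 by 1.08 (adjusted p = 0.00169) and ENO2 by 0.57 (adjusted p = 0.029). GPM1 (−0.01), TPI1 (−0.13) and FBA1 (−0.33) did not pass. The chz1 pair is a single value, assumed to vary like the other strains. It also enters the mean and the spread against which each of the other 4 strains was tested. For TDH1 the SE was 0.264 in the chz1 test and 0.495 to 0.636 in the other 4. That wider spread limits what those tests can call, so their counts do not show the TSA difference to be particular to the chz1 deletion. After scaling between arrays GPM2 (adjusted p = 0.119), ENO1 (adjusted p = 0.182) and ENO2 (adjusted p = 0.396) no longer passed. With the deposited series matrix, matched by file, TDH1 (adjusted p = 0.0976), GPM2 (adjusted p = 0.107) and ENO2 (adjusted p = 0.0618) did not pass. In the asf1, nap1, rtt106 and vps75 deletions 0 of the 10 genes and 0% of all genes passed, and 0 of the 10 had an unadjusted p under 0.05.

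The chz1 array without TSA enters all 7 calls. After quantile normalisation it lay outside the range of the other 10 arrays in both channels for TDH1 and TDH3, in the experimental channel alone for TDH2, in the reference alone for PGK1, GPM2 and ENO1, and in neither for ENO2. TDH1 had a signal of 26561 in the chz1 RNA and 35931.5 in the reference of that array, whereas the references of the other 10 arrays lay between 1882.5 and 7088.5. GPM2 had signals of 843.5 in the chz1 RNA and 1470.5 in its reference, against 67 to 357 in the other references. TDH1 and GPM2 were thus lower in ratio on that array while their signals in the reference were the highest of the series.

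TDH3 went the other way, with 10120 in the chz1 RNA and 20379.5 in its reference, the experimental signal being the lowest of 11 arrays. TDH2 had 11057 in the chz1 RNA and 20069.5 in its reference. The 2 repeat measurements of TDH2 on that array gave log2 ratios of −1.61 and −0.59, the widest gap of any of the 10 genes on any array, whereas those of TDH3 gave −1.09 and −1.20. After quantile normalisation over the 11 arrays, the chz1 RNA without TSA deviated from the median of the other arrays by 2.16 for TDH1, −1.53 for TDH2, −2.38 for TDH3 and −0.14 for GPM2 (log2). Its reference deviated by 3.11 for TDH1, −0.22 for TDH2, −0.84 for TDH3 and 1.57 for GPM2. The reference thus differed from the other references most for TDH1 and GPM2.

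**Figure D3:**
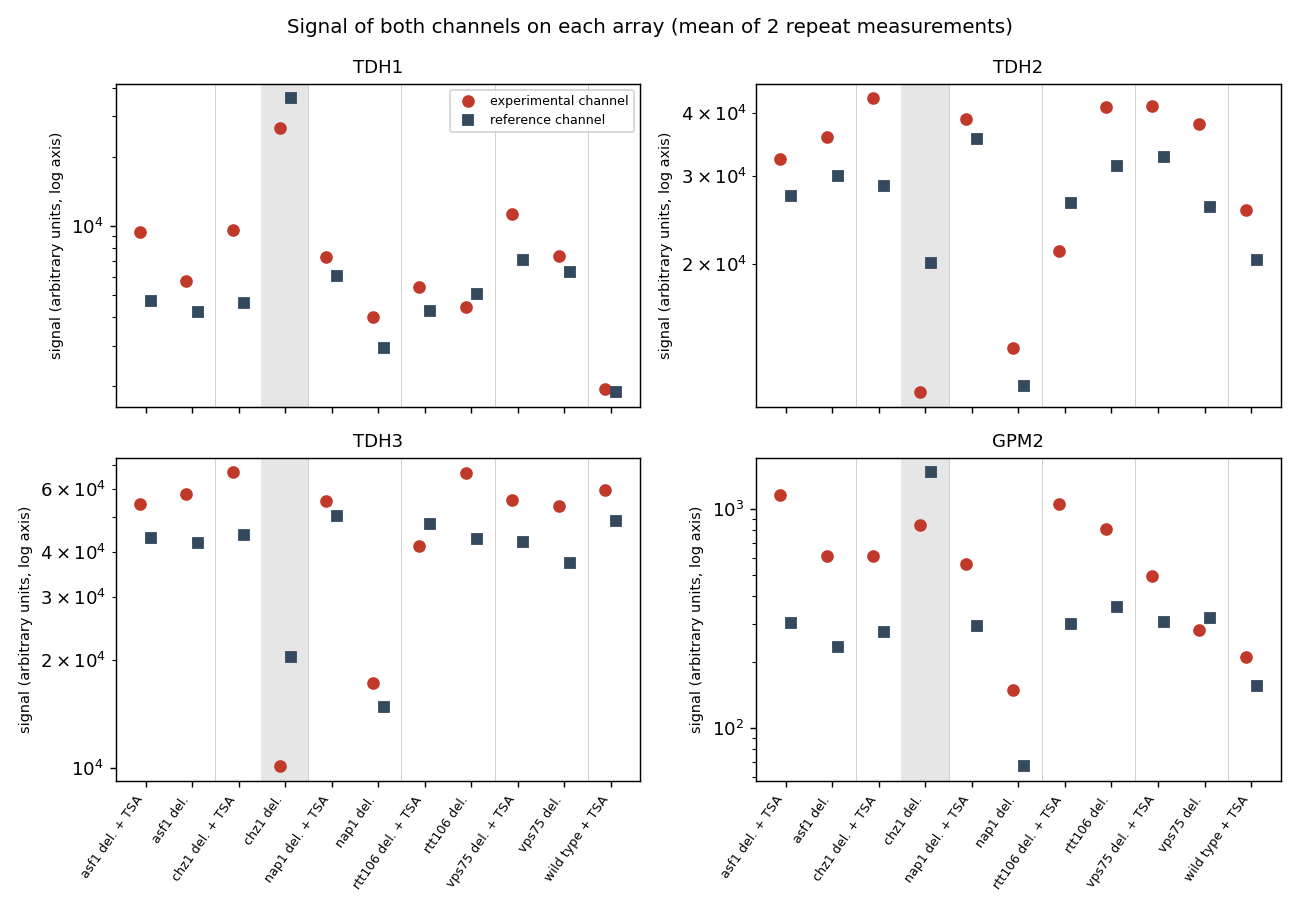
Signal in arbitrary units (log axis) of TDH1, TDH2, TDH3 and GPM2 on each of the 11 arrays, experimental channel (red circles) and reference channel (dark squares), each the mean of 2 repeat measurements. The shaded chz1 array without TSA has TDH1 at 26561 and 35931.5, above every other array, and TDH3 at 10120 in its experimental channel, below every other array.

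The signals by array also show the nap1 array without TSA as dim in both channels, from 9647 to 17379.5 in the nap1 RNA and from 8997.5 to 16194.5 in its reference for the 8 genes other than TDH1 and GPM2. When the experimental channel was taken alone, log2 of the signal plus 50 after quantile normalisation, an alternative chosen after seeing the data, the chz1 differences of TDH1 and GPM2 relative to the other 4 strains turned to −2.19 and −0.60. TDH2 and TDH3 kept their direction, at 1.87 and 2.92. Of the 10 genes 0 then passed, and 0.101% of all genes did. The lowest adjusted p among the 10 was 0.0983, for TDH1.

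**Figure D4:**
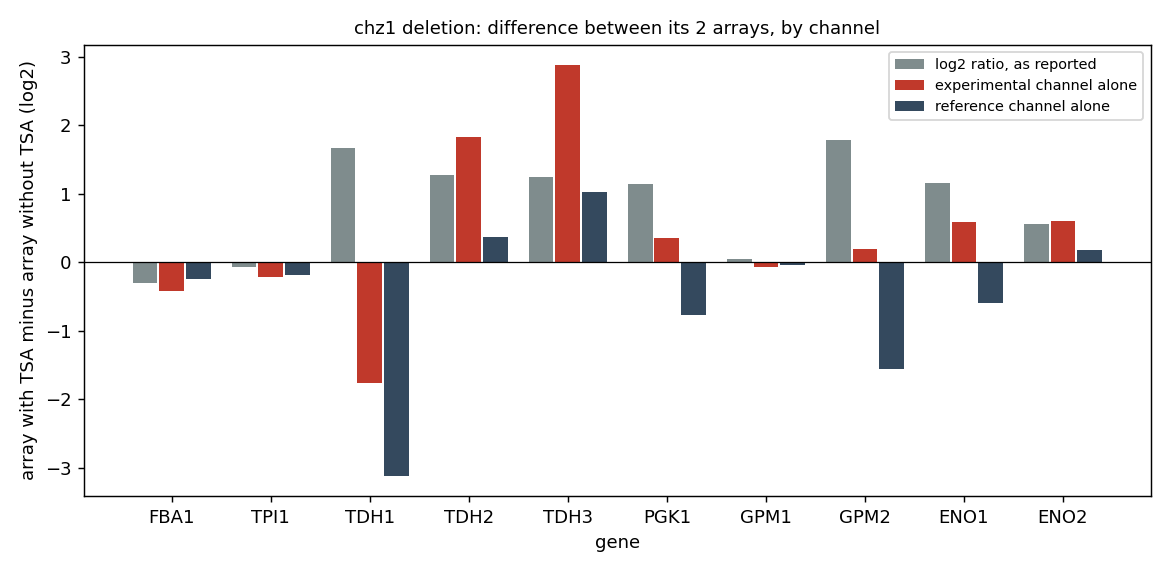
Difference between the chz1 array with TSA and the chz1 array without TSA (log2) for each gene, as the loess-normalised log2 ratio (grey), and for the experimental (red) and the reference channel alone (dark) after quantile normalisation. For TDH1 the ratio differed by 1.67 while the experimental channel differed by −1.76 and the reference channel by −3.12, and for TDH3 the experimental channel differed by 2.88.

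The bars of the chz1 deletion by channel divide the 7 called genes. For TDH2, TDH3 and ENO2 the experimental channel was higher with TSA by more than the ratio was (1.83, 2.88 and 0.61). For GPM2 the experimental channel differed by 0.19 and the reference by −1.55, for PGK1 by 0.35 and −0.77, and for ENO1 by 0.58 and −0.60. With the experimental channel alone over all 5 strains, the mean TSA difference was −0.01 for TDH1 and 0.67 for GPM2, and without the chz1 pair it was 0.43 for TDH1 and 0.79 for GPM2. GPM2 was on the higher side in 5 of 5 strains in that channel too. Its largest difference there was 1.475, in the nap1 deletion, but the reference channel of the same nap1 arrays differed by 1.709. That nap1 value enters both GPM2 means.

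The deletions were then compared with each other, each strain's 2 arrays against the mean of the other 4 strains. The array with TSA and the array without served as a strain's replicates, and they may share a culture. The p-values of these contrasts therefore do not measure the spread between cultures or clones of a deletion. Of the 10 genes 0 passed in the asf1 deletion, where 1.96% of all genes did, and 0 in the chz1 (0.287%), nap1 (0.0338%), rtt106 (2.27%) and vps75 (2.96%) deletions. At an unadjusted p under 0.05 there were 2 of the 10 genes in asf1, 2 in chz1, 3 in nap1, 1 in rtt106 and 1 in vps75, against 16.8%, 15.7%, 9.08%, 14.8% and 9.06% of all genes in the same strain order. GPM2 averaged 1.39 in the asf1 deletion against 0.61 in the others, a difference of 0.79 ± 0.28 (adjusted p = 0.21), and 0.13 in the chz1 deletion against 0.92 in the others (adjusted p = 0.269). TDH1 averaged 0.80 in the asf1 deletion against 0.19 in the others, a difference of 0.61 ± 0.28 (adjusted p = 0.339).

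The SE of the asf1 contrast of TDH1 was 0.14 with the chz1 pair left out, against 0.28 with it. With that pair left out, so that each strain was set against 3 others, 12% of all genes passed in the asf1 deletion, and TDH1 (0.58, adjusted p = 0.0289), GPM2 (0.63, adjusted p = 0.0162) and ENO1 (0.47, adjusted p = 0.0245) were among them, all higher. Of the 709 genes called there, 465 were higher. These 3 members are the stress-type genes, and 0 of the 7 growth-type genes passed there. The growth-type genes other than TPI1 (−0.08) were also higher, with GPM1 at 0.30 (limma, adjusted p = 0.0666) and TDH3 at 0.32 (adjusted p = 0.105). The difference between stress-type and growth-type genes was not tested. In the rtt106 deletion GPM2 was higher by 0.55 (adjusted p = 0.0251), with 14.5% of all genes called. In the vps75 deletion GPM2 was lower (−0.95, adjusted p = 0.00138), with 9.2% of all genes called. In the nap1 deletion GPM1 was lower (−0.43, adjusted p = 0.0284), with 7.49% called. The shares of all genes called were high without the chz1 pair, so the counts stand against that background. Here too a strain's 2 arrays served as its replicates, and with the chz1 pair in the fit 0 of the 10 genes passed.

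Among the arrays without TSA alone, TDH2 (−1.10, adjusted p = 0.0188) and TDH3 (−1.15, adjusted p = 0.0188) were lower in the chz1 deletion than in the other 4, with 13.7% of all genes called. The chz1 side is 1 array, assumed to vary like the others, and it is the one that stands apart. TDH1 (−0.92, adjusted p = 0.0749) and ENO1 (−0.76, adjusted p = 0.057) did not pass.

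Stress-type and growth-type genes were contrasted by subtracting the mean ratio of the 7 growth-type genes from that of the 3 stress-type genes. The difference was 0.86 in asf1, 0.43 in chz1, 0.36 in nap1, 0.67 in rtt106 and 0.28 in vps75 deletions with TSA, against 0.45, −0.54, 0.51, 0.14 and −0.22 in the same strains without TSA, and wild type with TSA had 0.07. With TSA all 5 deletions lay above 0, and without TSA the chz1 and vps75 deletions lay below it. The difference was larger with TSA in 4 of 5 strains, by a mean of 0.46 ± 0.40 (SD, n = 5), and by 0.33 without the chz1 pair. The nap1 deletion went the other way (−0.15). This score over chosen genes carries no test, and with the experimental channel alone its mean TSA difference was 0.05. With the vps75 arrays exchanged it was 0.26.

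**Figure D5:**
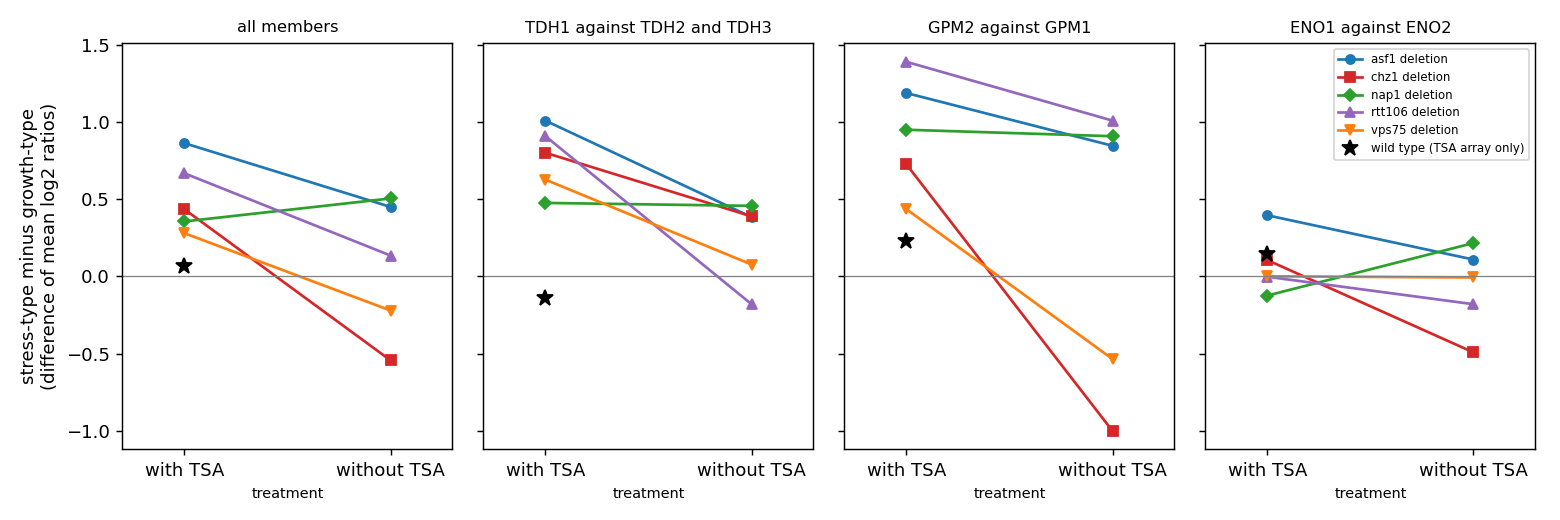
Mean log2 ratio of stress-type genes minus that of growth-type genes, with and without TSA, for each deletion strain (joined symbols) and for wild type with TSA (star), for all 10 genes and for each enzyme alone. TDH1 against TDH2 and TDH3 is higher with TSA in 5 of 5 strains after loess (mean 0.54), by only 0.02 in the nap1 deletion. The vps75 arrays are drawn as the sample files have them, and exchanging them reverses the vps75 lines. ENO1 against ENO2 has a mean of 0.15.

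The stress-type against growth-type contrasts by enzyme differed in size. TDH1 set against the mean of TDH2 and TDH3 was higher with TSA in 5 of 5 strains, by 0.63 in asf1, 0.41 in chz1, 0.02 in nap1, 1.09 in rtt106 and 0.55 in vps75 (mean 0.54 ± 0.39, SD, and 0.57 without the chz1 pair). After median centring, TDH1 in the nap1 deletion was 0.201 with TSA and 0.375 without. TDH2 was 0.071 and 0.214 and TDH3 0.083 and 0.174, so the contrast was lower with TSA there. With the experimental channel alone, the chz1 differences were −1.765 for TDH1, 1.826 for TDH2 and 2.876 for TDH3, placing the contrast below 0. GPM2 set against GPM1 was likewise higher in 5 of 5 strains, by 0.34, 1.73, 0.04, 0.38 and 0.97 (mean 0.69 ± 0.67, SD, and 0.43 without the chz1 pair). The 0.04 of the nap1 deletion depended on the constant added to each intensity. Without that constant, GPM2 there was 0.9 with TSA and 1.053 without. GPM1 was −0.152 and −0.208, so this contrast was lower with TSA in that strain. With the 2 vps75 arrays exchanged, the TDH and the GPM contrasts were both lower with TSA in the vps75 deletion. ENO1 set against ENO2 had a mean of 0.15 ± 0.35 (SD, n = 5), and 0.03 without the chz1 pair. On the loess ratios the TDH contrast was the one whose mean the chz1 pair did not raise. It was widest in the rtt106 deletion, where TDH1 was on the higher side with TSA and TDH2 and TDH3 on the lower side.

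The genes whose ratios followed a member most closely over the 11 arrays were found by Pearson correlation, which describes these arrays and carries no test. TDH1 was followed by PET9, a mitochondrial ADP/ATP carrier gene (r = 0.962), by CDC25, the exchange factor gene of Ras (r = 0.954), and by PRY1 (r = 0.937). GPM2 was followed by YLR326W (r = 0.986), by BDH1, a butanediol dehydrogenase gene (r = 0.967), and by KGD2, a gene of the alpha-ketoglutarate dehydrogenase complex (r = 0.959). ENO1 was followed by YDR535C (r = 0.922), BMH2 (r = 0.915) and ETR1 (r = 0.914), and the mean of the growth-type genes by NRM1 (r = 0.914), SLS1 (r = 0.913) and CDC15 (r = 0.879). With the chz1 array without TSA left out, these 12 correlations lay between 0.835 (ENO1 with BMH2) and 0.974 (GPM2 with YLR326W). Among the 10 genes themselves, TDH1 and GPM2 correlated at 0.690, and at 0.440 without that array. FBA1 and GPM1 correlated at 0.771, and at 0.913 without it. ENO1 correlated with TDH1 at 0.842 (0.706 without that array) but with GPM2 at 0.485 (0.033). Of the growth-type genes, ENO1 correlated with TDH2 at 0.885 (0.761), TDH3 at 0.861 (0.704), ENO2 at 0.849 (0.821) and PGK1 at 0.758 (0.627). With GPM1 (0.275), FBA1 (−0.171) and TPI1 (−0.282) its correlations over the 11 arrays were lower.

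Other genes of the pathway were counted in 4 lists. For TSA over the 5 deletions, 0 of 9 upper glycolysis genes, 0 of 10 pyruvate kinase and fermentation genes, 0 of 6 gluconeogenesis genes and 0 of 6 regulator genes passed. The median difference was 0.62 for the 3 stress-type genes and 0.07 for the 7 growth-type genes, against 0.10 for upper glycolysis, 0.09 for pyruvate kinase and fermentation, −0.07 for gluconeogenesis, 0.01 for regulators and a value near 0 for all genes. The highest of these other genes were HXK1 (0.78 ± 0.33, SE), a hexokinase gene repressed by glucose, and the glucokinase gene GLK1 (0.56 ± 0.31). Like TDH1, both were higher with TSA in 4 of 5 strains, not in nap1. Without the chz1 pair HXK1 stood at 0.45 and GLK1 at 0.21, beside 0.50 for GPM2, 0.36 for TDH1 and 0.02 for ENO1. The median was then 0.36 for the 3 stress-type genes and 0.025 for the 7 growth-type genes. With only 3 genes, the stress-type median is the value of TDH1, both with and without the chz1 pair. The lowest were PYC1 (−0.46 ± 0.14), a pyruvate carboxylase gene, and the regulator TYE7 (−0.19 ± 0.07), each lower in 5 of 5 strains.

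In the TSA difference of the chz1 deletion against the other 4 strains, 5 of 9 upper glycolysis genes were called higher (HXK1, GLK1, PFK2, PFK26 and PFK27) and 0 lower, against 7 of 10 lower glycolysis genes and 29.9% of all genes (16% higher). Pyruvate kinase and fermentation had 1 called higher (PDC5) and 1 lower (ADH1), gluconeogenesis 1 higher (PYC2) and 3 lower (FBP1, MAE1 and PYC1), and the regulators 1 higher (RAP1) and 1 lower (GCR2). These 13 calls shrank to 1 after scaling between arrays and to 0 with the experimental channel alone. Between strains, ADH2, an alcohol dehydrogenase gene repressed by glucose, was higher in the rtt106 deletion by 1.39 (adjusted p = 0.00367), and PFK26, a phosphofructokinase-2 gene, was higher in the vps75 deletion by 0.82 (adjusted p = 0.0345). ADH2 had ratios of 1.74 with TSA and 1.33 without in the rtt106 deletion, and PFK26 had 1.10 with TSA and 1.03 without in the vps75 deletion.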

How the data were processed

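Per the labels, total RNA of each culture was labelled and hybridised to Agilent 2-colour arrays. For each array the authors deposited the probe intensity of either channel, measured 2 times, a log10 ratio and a rounded fold. The deposited series matrix holds the log2 of that fold. How the scanner was set and the background handled was not given in the sources used here. Both the log10 and log2 ratios ran as reference over experimental RNA except on the nap1 array without TSA, as the deleted genes show, and were turned to experimental over reference. The matrix columns of the 2 vps75 arrays are exchanged relative to the sample files, which were used.

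For this work, 50 was added to each intensity, log2 ratios were normalised by loess (span 0.3) within each repeat with limma 3.58.1 in R 4.3.3, and the 2 repeats were averaged. The files hold no background or flag columns, so the signal of HIS3, LEU2, LYS2 and URA3 served as the floor, and a gene counted as detected above 2 times their median. A gene was fitted when one channel or the other detected it on 50% or more of the 10 deletion arrays, which held for 5916 of 6256. Every gene has 1 probe. Of the 6256, 5756 matched the RefSeq table of assembly R64 by systematic name.

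TSA was fitted by lmFit and eBayes with strain as the block, which pairs a strain's 2 arrays by design. Deviations within a pair correlated across genes at 0.594 (asf1), −0.152 (chz1), 0.400 (nap1), 0.657 (rtt106) and 0.676 (vps75). Each strain was contrasted with the other 4 in that fit, and each strain's TSA difference with those of the other 4. P-values were adjusted by Benjamini-Hochberg over all genes fitted, at 0.05, and the fits were tested on simulated data. They measure the spread between these arrays, which may be technical. All 10 genes are named, and other pathway genes are named where they passed a test, had one of the 2 highest or 2 lowest mean TSA differences, or were at least 2-fold from 0 on 2 arrays or more. For patterns, the 3 most correlated genes are given. The genes and lists were chosen with earlier results of these data known. The number of arrays limits the precision.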

Additional observations from a re-analysis of the deposited data

Results flagged for a closer look

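In the TSA differences of the 5 strains, the chz1 deletion stood far from the other 4 for TDH3 (1.25) and PGK1 (1.14), with a gap above Dixon's 95% critical value. Chance gives about 1 such gap in 20 groups. The TSA difference of the chz1 deletion also exceeded the mean of the other 4 strains by limma's test of the difference itself, by 1.31 for TDH1, 1.46 for TDH2, 1.48 for TDH3, 1.08 for PGK1, 1.28 for GPM2, 1.13 for ENO1 and 0.57 for ENO2. All of these values use the chz1 array without TSA, whose reference had TDH1 at 35931.5 against 1882.5 to 7088.5 on the other arrays and GPM2 at 1470.5 against 67 to 357. With the experimental channel alone, 0 of the 10 genes passed.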

How the results depend on the processing

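The arrays are single, the chz1 array without TSA enters the calls of the chz1 deletion, and loess moves the brightest genes, so levels near 0 have no settled direction. The counts of genes and of the 10 members called for TSA (0 and 0) held under 18 of 20 alternatives. They came to 19 and 1 with array weights (GPM2, 0.60, adjusted p = 0.045) and to 408 and 2 with the untreated deletion strain as the reference. Without the replicate block, strain being left out of the model, 0 genes passed and GPM2 kept its 0.76 (adjusted p = 0.994), and the block changed no other call. The 7 calls in the TSA difference of the chz1 deletion became 4 after scaling between arrays, 4 with the series matrix matched by file, and, among alternatives chosen after seeing the data, 2 with its columns as named and 0 with the experimental channel alone. Leaving out each of the other strains in turn gave 6 to 7. With the experimental channel alone, 2 members passed in the nap1 deletion and the stress-type minus growth-type difference was 0.046. Leaving out each strain in turn gave 0.33 to 0.61 for that difference, and 0 to 3 members called in the asf1 contrast and 0 to 1 in those of nap1, rtt106 and vps75, the higher counts without the chz1 pair. The chz1 contrast had 2 on the untreated arrays only.

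Some mean TSA differences changed sign under an alternative. TPI1 was −0.012 after median centring. After scaling between arrays TDH2 was −0.041 and TDH3 −0.067, with the first repeat FBA1 was 0.024 and TDH3 −0.043, and with the second TDH2 was −0.017. The experimental channel alone gave FBA1 0.10 and TDH1 −0.013. With array weights TDH2 was −0.28, TDH3 −0.33 and ENO2 −0.048, and with the untreated deletion as the reference FBA1 was 0.17, TDH2 −0.13, TDH3 −0.16, ENO1 −0.13 and ENO2 −0.21. Leaving out each strain in turn, FBA1 ranged between −0.10 and 0.025, TPI1 between −0.024 and 0.069, TDH2 between −0.20 and 0.24, TDH3 between −0.23 and 0.23 and ENO2 between −0.014 and 0.16. For the chz1 deletion against the other 4, GPM1 turned to 0.16 after median centring, 0.21 after scaling, 0.18 with the authors' log ratio, 0.19 and 0.098 with the matrix by file and as named and 0.082 with the second repeat, and ranged between −0.084 and 0.028 with each other strain left out. TPI1 turned to 0.11 after scaling, 0.005 with the authors' ratio and 0.008 with the second repeat, and FBA1 to 0.057 after scaling. TDH1 (−2.19) and GPM2 (−0.60) turned with the experimental channel alone. The cause of these changes was not tested.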

Other observations

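Of the regulators of glycolytic genes, GCR1, which encodes the main activator of these genes, was higher with TSA in 5 of 5 strains, by 0.36 ± 0.10 (SE, limma, adjusted p = 0.814), and did not pass the adjustment. It had a ratio of 0.54 in wild type with TSA. GCR1 was outside the rule for named genes and was chosen after its values were seen. HXK1 and GLK1 were at least 2-fold from 0 on 4 arrays each: HXK1 had 2.25 in asf1, 2.07 in chz1 and 1.45 in vps75 deletions with TSA and 1.75 in the asf1 deletion without TSA, and GLK1 had 1.87 in asf1 and 1.28 in chz1 deletions with TSA, and 1.17 in asf1 and 1.21 in nap1 deletions without TSA.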
